A study of Mus musculus with 2 samples.

Results

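Interferon response and class I antigen presentation genes were compared between islets of control mice and islets of mice with a beta cell-specific deletion of Zbtb20, which encodes a zinc finger transcription factor. The members were 51 genes listed by function, with earlier results of these data known, as RNA sensors, receptors, transcription factors, effectors, negative regulators and class I presentation genes. Probe sets specific to a single gene represented 49 of them, out of 18193 genes so represented, and 48 were measured, out of 11802 measured genes. The series holds 1 Affymetrix array per group. The control group was labelled wildtype and the other group b cell-specific ZBTB20 knockout, and both came from mice of 2 to 3 months on a mixed background. The knockout mice and the controls were littermates. All islets were picked by hand after collagenase digestion and cultured overnight before freezing. The labels name neither the promoter that drives the beta cell deletion nor how many animals stand behind an array.

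Interferons are secreted cytokines that cells release on sensing viral nucleic acids. Their receptors act through Janus kinases, STAT proteins and interferon regulatory factors (IRFs) to switch on a large set of antiviral genes, and interferon-gamma in particular raises the machinery that loads peptides onto class I molecules for display to T cells. In islets these genes are best known from viral infection and type 1 diabetes, where beta cells show high class I levels. Islets hold endocrine cells together with some macrophages, endothelial cells and leftover exocrine cells, and all of these can express interferon-responsive genes. On a bulk array, fewer cells of a type and less RNA per cell cannot be told apart.

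Many interferon-responsive genes carry a motif bound by IRF proteins near their start sites, and the promoters of members described below are shown for that reason. Each runs from 250 bases before to 50 bases after the RefSeq start site in build GRCm38.p6, 5′ to 3′ on the strand of the gene, with matches to GAAANNGAA or its reverse complement in capitals. Ifit1 lies at chr19:34640639-34640938 (plus strand), Ifit3 at chr19:34583279-34583578 (plus), Ifih1 at chr2:62646206-62646505 (minus), Oas1a at chr5:120907476-120907775 (minus), B2m at chr2:122147437-122147736 (plus) and Tap1 at chr17:34187306-34187605 (plus). Ifit1, Ifit3, Ifih1 and Oas1a are examples of genes with a lower signal in the knockout-labelled islets. B2m is a bright class I gene, and Tap1, without a match in this window, a class I gene that was not lower. Among class I genes with a window only B2m held a match, so it does not stand for H2-K1, H2-D1 or Tapbp. Not shown are genes with a match that were not lower, such as Bst2, Trim25 and Cd274. Lower genes without a match, such as Irf7 and Psmb10, are not shown either.
Ifit1: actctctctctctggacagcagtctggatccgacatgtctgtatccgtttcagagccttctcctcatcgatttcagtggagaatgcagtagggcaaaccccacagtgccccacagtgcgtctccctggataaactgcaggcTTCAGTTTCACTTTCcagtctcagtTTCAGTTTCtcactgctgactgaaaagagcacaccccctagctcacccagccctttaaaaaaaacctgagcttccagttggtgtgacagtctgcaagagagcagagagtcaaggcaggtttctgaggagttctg
Ifit3: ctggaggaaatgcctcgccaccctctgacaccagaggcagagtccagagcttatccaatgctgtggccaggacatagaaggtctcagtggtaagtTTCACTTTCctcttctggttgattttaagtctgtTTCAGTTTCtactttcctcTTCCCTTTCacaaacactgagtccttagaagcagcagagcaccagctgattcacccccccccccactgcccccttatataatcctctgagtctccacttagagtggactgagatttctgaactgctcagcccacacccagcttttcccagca
Ifih1: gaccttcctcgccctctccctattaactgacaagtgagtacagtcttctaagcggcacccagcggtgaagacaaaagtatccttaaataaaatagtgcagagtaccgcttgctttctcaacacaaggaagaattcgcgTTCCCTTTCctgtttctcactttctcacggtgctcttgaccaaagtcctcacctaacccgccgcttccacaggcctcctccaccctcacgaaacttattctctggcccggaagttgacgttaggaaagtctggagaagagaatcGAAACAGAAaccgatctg
Oas1a: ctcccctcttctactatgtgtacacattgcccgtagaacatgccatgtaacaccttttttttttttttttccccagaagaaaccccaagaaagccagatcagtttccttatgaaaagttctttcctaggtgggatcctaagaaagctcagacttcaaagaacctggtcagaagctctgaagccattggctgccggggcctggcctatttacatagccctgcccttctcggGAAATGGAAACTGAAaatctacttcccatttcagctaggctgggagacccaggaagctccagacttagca
B2m: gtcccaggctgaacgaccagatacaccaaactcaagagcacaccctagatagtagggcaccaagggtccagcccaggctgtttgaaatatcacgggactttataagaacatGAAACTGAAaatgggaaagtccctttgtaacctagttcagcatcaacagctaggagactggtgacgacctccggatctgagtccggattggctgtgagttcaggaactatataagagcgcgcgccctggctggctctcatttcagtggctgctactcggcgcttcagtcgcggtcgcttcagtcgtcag
Tap1: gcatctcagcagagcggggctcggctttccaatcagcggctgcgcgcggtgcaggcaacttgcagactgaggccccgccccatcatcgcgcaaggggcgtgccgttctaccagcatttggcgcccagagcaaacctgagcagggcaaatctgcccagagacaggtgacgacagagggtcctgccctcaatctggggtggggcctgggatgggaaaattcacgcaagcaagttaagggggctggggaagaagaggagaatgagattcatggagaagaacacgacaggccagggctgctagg

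The windows of Ifit1 and Ifit3 each held 3 matches to this IRF motif, those of Ifih1 and Oas1a 2 each and that of B2m 1. In Ifit1 the match nearest the start site began 84 bases before it. In Oas1a the matches began 20 and 14 bases before the start site and overlapped. The motif was searched on both strands of all 32851 windows of the table, which cover 27025 genes. It was present in 21 of the 42 members with a window (50%) and in 9.76% of all genes. A second motif, TTCNNNGAA, the GAS element bound by STAT dimers, was present in 13 of the 42 members (31%) and in 9.55% of all genes. The windows of 6 members, including Oas1a, Bst2 and Eif2ak2, held both motifs, and in Bst2 and Ifitm3 an IRF match shared bases with a GAS match. A match describes the letters of the reference sequence and does not show that a factor binds there.

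The deposited values are probe set intensities on a linear scale, here called signals. A gene was read from its brightest probe set. Signals below the median of an array (21.6 in control, 21.7 in the knockout-labelled array) were raised to that floor, and the log2 ratio was then formed with the knockout-labelled array as numerator. Genes that stayed below the floor in both groups were not used. With 1 array per group there is no replicate error, no test was possible, and each ratio compares a pair of RNA preparations. The median SD of the log2 ratio among probe sets of 1 gene, 0.21 over 4719 genes, is the only measure of error available, and it leaves out all variation between animals. The islet label was matched by the beta cell genes, all 8 of which were measured, with an Ins2 signal of 9194 (control) and 7786 (knockout-labelled). Zbtb20 itself did not settle the genotype label: of its 9 probe sets 5 were lower and 4 higher, with log2 ratios from -0.87 to 0.54, and the labels do not name the deleted exons. The array is therefore called knockout-labelled.

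Most interferon response genes had a somewhat lower signal in the knockout-labelled islets. No member measured above the floor on both arrays differed by 2-fold. Of the 48 measured members 35 had a log2 ratio below 0 and 13 above 0, against 49.8% and 49.9% of all measured genes. The median log2 ratio of the members was -0.20, and that of all genes was 0. With the floor at the median, none reached a 2-fold lower signal, which 1.44% of all genes did, and none a 2-fold higher signal, which 1.82% did. A 1.5-fold lower signal was seen for 5 members (Ifih1, Ddx58, Dhx58, Oas1a and Mx1) against 6.2% of all genes, and a 1.5-fold higher signal for 1 member, Ifngr1, against 6.9%. Of the measured members 46 were above the floor on both arrays, and 34 of these were below 0, with a median of -0.20. Mx2 and Socs1 passed the floor on 1 array only, so their ratios are bounds and a 2-fold difference is possible for both. With the floor at the 30th percentile their log2 ratios were 1.81 and -1.56.

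**Figure D1:**
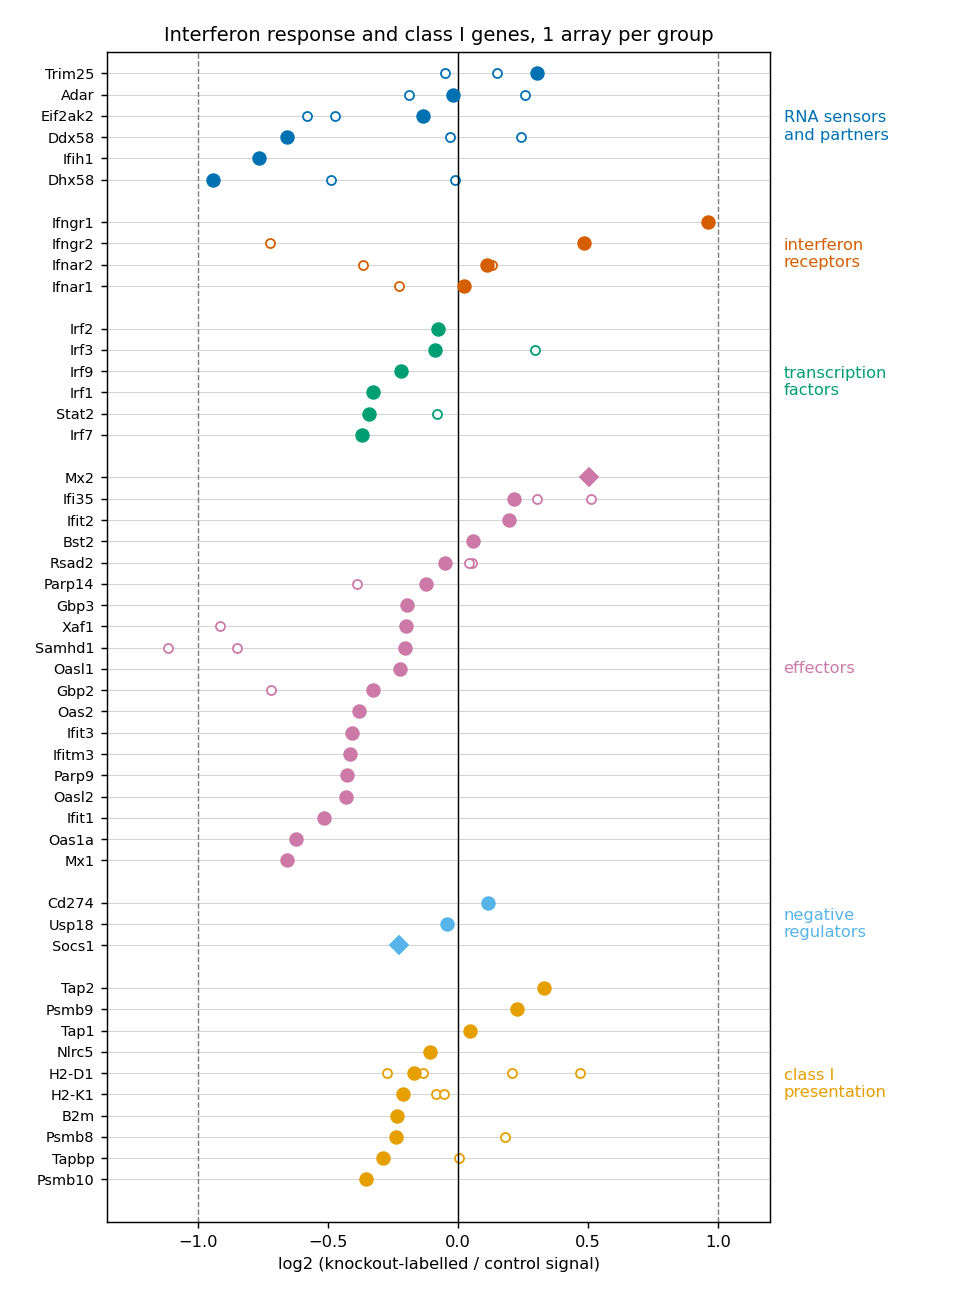
Log2 ratio of the knockout-labelled over the control signal (x axis) for each measured member (rows), grouped by role. Filled circles are the brightest probe set, and diamonds are bounds for genes above the floor on 1 array only. Open circles are the other measured probe sets of the gene, and dashed lines mark a 2-fold difference. No brightest probe set reaches those lines, and those of all 6 transcription factor genes lie left of 0.

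Read from the brightest probe set, the cytosolic RNA sensor genes Dhx58, Ifih1 and Ddx58 had the lowest ratios among members above the floor on both arrays. The proteins encoded by Ifih1 and Ddx58 bind viral RNA and start interferon production. Ifih1, which encodes the long-RNA sensor MDA5, was 336 in control islets and 197 in those labelled knockout (1.70-fold lower, log2 ratio -0.77). Ddx58, which encodes the sensor RIG-I, was 384 and 243 (1.58-fold lower). Dhx58, which encodes LGP2, a regulator of both, was 66.1 and 34.4 (1.92-fold lower, log2 ratio -0.94). All 3 members of the RIG-I-like receptor family were thus lower in their brightest probe sets. For Ddx58 this rested on 1 probe set, since the weaker ones went from 40 to 47.3 (log2 ratio 0.24) and from 22.2 to 16.4 (next to the floor). The 2 weaker probe sets of Dhx58 had knockout-labelled signals under the floor, which gave bounds of -0.49 and -0.013. With the mean over all measured probe sets the ratios were -0.15 for Ddx58 and -0.48 for Dhx58, less far below 0 than those of Samhd1 (-0.72), Mx1 (-0.66) and Oas1a (-0.63).

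The other genes of the sensing group were closer to equal in their brightest probe sets. Eif2ak2, which encodes the RNA-activated kinase PKR that halts translation, was 124 and 113 in its brightest probe set. Its 2 other probe sets had log2 ratios of -0.58 and -0.48. With the mean over all measured probe sets Eif2ak2 was at -0.40, further below 0 than Ddx58 at -0.15. Adar, which edits double-stranded RNA and so shields cellular RNA from the sensors, was 409 and 404. Trim25, a ubiquitin ligase that activates RIG-I, was 446 and 551 (1.23-fold higher, log2 ratio 0.30), with 0.15 and -0.052 in its other probe sets. Of the 6 genes of this role, Trim25 was the only one above 0. The median log2 ratio of the role was -0.40. Among the 5 of them with a mean signal of at least 100, a set without Dhx58, the median was -0.14.

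The interferon receptor genes were the only role with no member below 0 when read from the brightest probe set. Receptors for type I interferon consist of the chains IFNAR1 and IFNAR2, those for interferon-gamma of IFNGR1 and IFNGR2. Ifngr1, the ligand-binding chain for interferon-gamma, was 51.3 (control) and 99.8 (knockout-labelled), the largest ratio on the higher side among members above the floor on both arrays (1.95-fold, log2 ratio 0.96). It had a single probe set, and its log2 ratio was 0.57 with the floor at the 70th percentile. Ifngr2, the accessory chain, was 56.8 and 79.5 in its brightest probe set and 69.3 and 41.9 in the other (log2 ratios 0.49 and -0.73), so its direction is not settled. Ifnar1 was 92.9 and 94.3, and Ifnar2 was 188 and 203, both within 1.5-fold. The median of the 4 receptor genes was 0.30, but -0.073 with the mean over all measured probe sets.

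All 6 transcription factor genes were lower in their brightest probe sets, each by less than 1.5-fold. Of all measured genes 49.8% were below 0. Irf7, the factor that amplifies type I interferon production, was 530 in control islets and 410 in those labelled knockout (log2 ratio -0.37). Stat2 and Irf9 encode parts of the complex ISGF3, which carries the type I interferon signal to DNA. Stat2 was 135 and 107 (log2 ratio -0.34, and -0.082 in its other probe set), and Irf9 was 282 and 242 (-0.22). Irf1, a mediator of interferon-gamma responses, was 259.6 and 207 (-0.33). Smaller differences were seen for Irf2, an antagonist of IRF1, at 72.9 and 69.1, and for Irf3, which is activated by phosphorylation after RNA sensing, at 160.1 and 150.5. Irf3 had another probe set, above the floor on 1 array only, that went from 10.9 to 26.5 (a bound of 0.29). With the mean over all measured probe sets Irf3 was at 0.10. The group median was -0.28.

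Of the 22 effector genes 19 were measured, with 15 below 0 and a median log2 ratio of -0.22. Oas3 was below the floor on both arrays (6.5 and 4.2), and no 1-gene probe set was found for Isg15 and Ifi44. The oligoadenylate synthetases make the second messenger that activates RNase L, and the measured members of the family were all lower. Oas1a was 521 in control islets and 338 in those labelled knockout (1.54-fold lower, log2 ratio -0.63). Oas2 was 101 and 77.9 (-0.38). The related Oasl2 was 431 and 319 (-0.43) and Oasl1, which restrains translation of Irf7 mRNA, was 184 and 158 (-0.22). Each of these 4 genes had a single probe set.

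The Ifit genes, whose products bind foreign RNA ends and block translation, did not all share a direction. Ifit1 was 411 and 287 (1.43-fold lower, log2 ratio -0.52), and Ifit3 was 567.5 and 428 (-0.41). Ifit2 was weaker, at 73.7 and 84.3 (0.19). Mx1, a GTPase that blocks influenza viruses in the nucleus, was 43.7 and 27.7 (1.58-fold lower), with a knockout-labelled signal next to the floor. Its paralog Mx2 went the other way, from 4.5 to 30.6. Since the control signal lay below the floor, this is a bound of at least 1.42-fold higher.

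Among other effectors, Ifitm3, a membrane protein that blocks virus entry, was 1171 and 877 (log2 ratio -0.42). Parp9, a partner of the ubiquitin ligase DTX3L, was 389 and 289 (-0.43), and Parp14 was 218 and 199.8 (-0.12). The guanylate-binding protein genes, best known as interferon-gamma targets, were both lower: Gbp2 was 172 and 137 (-0.33, and -0.72 in its other probe set) and Gbp3 was 156 and 136 (-0.20). For Xaf1 and Samhd1 the brightest probe set showed a much smaller ratio than the next. Xaf1, a promoter of apoptosis, was 383 and 333 in its brightest probe set and 355 and 188 in the other (log2 ratios -0.20 and -0.92). Samhd1, a dNTP hydrolase that starves viral reverse transcription, was 115 and 99.6 in its brightest probe set (-0.20) and 70.9 and 32.7 in the next (-1.12). That Samhd1 probe set was the only 1 of the 73 member probe sets above the floor on both arrays that was 2-fold lower, and none was 2-fold higher. With the mean over all measured probe sets the effector median was -0.41.

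A few strongly induced effectors were close to equal on both arrays. Rsad2, which encodes viperin and is among the most inducible interferon-stimulated genes, was 846 and 817 in its brightest probe set, and its 3 probe sets had log2 ratios between -0.050 and 0.052. Bst2, which encodes tetherin, a protein that holds budding virions at the membrane, was 528 and 549 (0.057). Ifi35 was higher in all 3 of its probe sets, with 1208 and 1401 in the brightest and log2 ratios of 0.21, 0.51 and 0.30. The effectors thus ranged from -0.66 (Mx1) to 0.50 (the bound of Mx2).

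The negative regulators differed little where they could be measured on both arrays. Usp18, which removes ISG15 from proteins and blocks signalling at IFNAR2, was 526 and 511. Cd274, which encodes the T cell inhibitory ligand PD-L1, was 62.8 and 68. Socs1, an inhibitor of Janus kinases, went from 25.4 to 8.6. The lower of these lies under the floor, so Socs1 was at least 1.17-fold lower. The median of these 3 genes was -0.042.

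Class I antigen presentation genes showed small differences in both directions. Of these 10 genes 7 were below 0, against 49.8% of all measured genes, and their median log2 ratio was -0.19. B2m, the invariant light chain of every class I molecule, was 4398 in control islets and 3737 in those labelled knockout (1.18-fold lower), and its other probe set gave nearly the same log2 ratio (-0.23 and -0.24). The heavy chain gene H2-K1 was 5704 and 4923 (-0.21), with ratios from -0.21 to -0.054 in its 4 probe sets. H2-D1 was 2915 and 2589 (-0.17). Tapbp, which encodes tapasin, the bridge between class I molecules and the peptide transporter, was 2074 and 1698 (-0.29), but 500 and 501 in its other probe set. In their brightest probe sets these bright class I genes were thus lower by similar small amounts. Of all genes with a mean signal above 1000, 63.5% were below 0, with a median of -0.056. Loess scaling put B2m at -0.16, H2-K1 at -0.12, H2-D1 at -0.11 and Tapbp at -0.24. Quantile normalization put them at -0.12, -0.13, -0.11 and -0.23. The bright H2-K1 and H2-D1 probe sets are of the _x_at type, whose probes can also detect related class I genes, so these values may mix several heavy chains. A weaker H2-D1 probe set without this suffix went from 63.1 to 87.4 (0.47).

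The peptide transporter genes were not lower. Tap1 was 94 and 96.9, and Tap2 was 115 and 145 (log2 ratio 0.33). Psmb9, a catalytic subunit of the immunoproteasome that lies next to Tap1, was 63.9 and 74.8 (0.23). Tap1 and Psmb9 are transcribed away from each other, and their promoter windows shared 275 of 300 bases. The other 2 immunoproteasome subunits were lower in their brightest probe sets: Psmb8 was 470.1 and 399 in its brightest probe set (-0.24) but 26.6 and 30.1 in the other (0.18), and Psmb10 was 582 and 455 (1.28-fold lower, -0.35). Nlrc5, the transactivator of class I genes, was weak, at 30.2 and 28.

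Psmb8, Psmb9 and Psmb10 replace Psmb5, Psmb6 and Psmb7 in the proteasome of interferon-exposed cells. The constitutive subunits were nearly equal on both arrays, with Psmb5 at 1179 and 1248, Psmb6 at 1256 and 1311 and Psmb7 at 2787 and 2688. Other genes of the class I pathway also differed little. Of 8 measured ones 6 were below 0, with a median of -0.11. The largest ratios were those of Erap1, a peptide-trimming protease (345 and 287.5, log2 ratio -0.26), the non-classical class I gene H2-M3 (184 and 219.5, 0.25), the proteasome activator gene Psme1 (735 and 658, -0.16) and the loading chaperone gene Pdia3 (5074 and 4569, -0.15). Quantile normalization or loess scaling put the class I median at -0.12, and averaging the probe sets of each gene put it at -0.070.

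**Figure D2:**
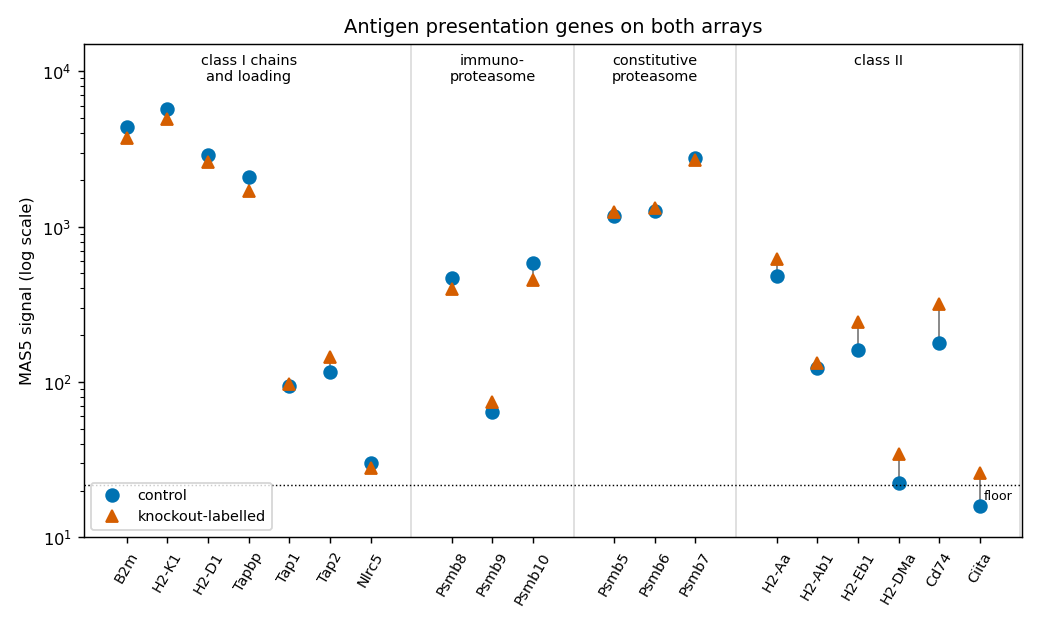
MAS5 signal on a log scale (y axis) of antigen presentation genes (x axis) in control (circles) and knockout-labelled islets (triangles), brightest probe set, 1 array each; the dotted line is the control floor. B2m, H2-K1, H2-D1 and Tapbp are slightly lower in knockout-labelled islets, the constitutive subunits nearly coincide, and all 6 class II genes are higher.

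Class II presentation genes, which in islets mark mainly macrophages and dendritic cells, went the other way from the bright class I genes. All 6 measured were above 0, with a median log2 ratio of 0.49. The invariant chain gene Cd74 was 177 and 320 (0.85), H2-Eb1 was 160.3 and 244 (0.61), H2-Aa was 482 and 623 (0.37, up to 1.43 in its other probe sets), and H2-DMa was 22.5 and 34.5 (0.62), next to the floor. Ciita, the class II transactivator, named after its value was seen, was 15.8 and 25.9, and its brightest probe set was above the floor on 1 array only. Macrophage markers were higher too, with 13 of 14 measured markers above 0 and a median of 0.56. Summed over these markers, the signal was 1292 (control) and 2004 (knockout-labelled). The markers with the largest ratios were Mrc1 (24.5 and 131), C1qb (49.1 and 114), Tyrobp (45.1 and 94.2) and Fcer1g (20.2 and 51.8). In control Fcer1g was under the floor, so its ratio is a bound, and Mrc1 was next to the floor. C1qb had log2 ratios of 1.21, 0.30 and a bound of 0.95 in its probe sets. Lyz2 and Csf1r are named after their values were seen. Lyz2 was 64 and 63.6, and Csf1r had log2 ratios of 0.19, -0.16 and 1.16 in its probe sets. Itgam and Aif1 were below the floor on both arrays. Of 7 dendritic cell markers 2 were measured, Zbtb46 and Ccr7, with a summed signal of 32.2 and 60.8. Most of that difference came from Zbtb46 (2.8 and 26.2), which was below the floor in control, while Ccr7 was 29.4 and 34.6. Of 7 lymphocyte markers with a probe set 2 were measured, with a summed signal of 62.2 and 65.9. These 2, named after their values were seen, were weak and went opposite ways. Cd8a was 33.6 and 54.1, and Cd79a was 28.6 and 11.8, the latter signal under the floor. The part of these cells in the member ratios was not tested.

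Acinar cell markers were lower on the same array, with 9 of 9 measured markers below 0, 6 of them 2-fold lower, and a summed signal of 42590 (control) and 21660 (knockout-labelled). Endothelial markers had a median of -0.18 over 7 genes, with summed signals of 763 and 734, and fibroblast markers one of -0.55 over 5 genes, with 219.9 and 141. The fibroblast median was the ratio of Lum (31.7 and 19.7), which is a bound, as is that of Dcn (61.6 and 19.8). Col3a1 was 46 and 22.5, Col1a2 26.5 and 23.4, and Pdgfrb 54.1 and 55.4. Col1a1 and Pdgfra were below the floor on both arrays. Duct markers had a median of -0.32 over 5 genes (7504 and 6608). Most of that sum came from Krt8, Krt18 and Epcam, while Krt19 was 51.1 and 41 and Cftr was below the floor on both arrays. Beta cell markers had a median of -0.17 over 8 genes (32720 and 29040). Alpha cell markers had one of -0.36 over 3 genes (25330 and 20460), delta cell markers one of 0.45 over 3 genes (11460 and 12230). Their hormone genes were closer to equal, with Gcg at -0.12 and Sst at 0.016. The fibroblast, duct, alpha and delta cell genes are named after their values were seen. The part of these cell types in the interferon and class I values was likewise not tested.

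**Figure D3:**
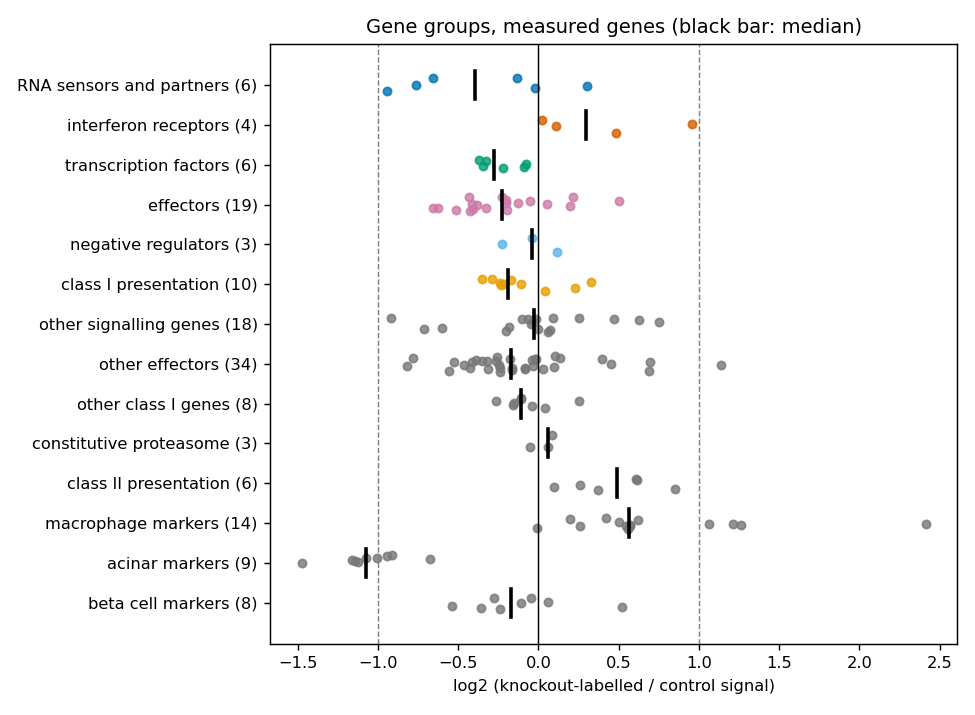
Log2 ratio of the knockout-labelled over the control signal (x axis) for each measured gene of the member roles (coloured) and of other gene groups (grey); numbers in brackets are measured genes, black bars are medians and dashed lines mark 2-fold. Medians of the sensors, transcription factors, effectors and class I genes lie between -0.40 and -0.19, whereas class II genes and macrophage markers have medians of 0.49 and 0.56.

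The interferons themselves were not measurable. All 7 ligand genes with a probe set were below the floor on both arrays, including Ifnb1 at 6.5 and 13.2 and Ifng at 0.7 and 1.1, which are named here after their values were seen. Signal transduction genes outside the members were centred near 0, with 11 of 18 below 0 and a median of -0.025. The largest ratios belonged to the kinase gene Ikbke, which phosphorylates IRF3 (82 and 43.3, log2 ratio -0.92), the adaptor gene Ticam1 (39.7 and 66.7, 0.75), the cytokine feedback inhibitor gene Socs3 (1073 and 653, -0.72) and Irf5 (14.7 and 33.4, at least 1.55-fold higher). The receptor-associated kinase genes, named after their values were seen, were nearly equal: Jak1 was 482 and 461.5, Jak2 222 and 217, and Tyk2 66.4 and 61.9.

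Of other interferon-stimulated effector genes, 25 of 34 measured were below 0, against 49.8% of all genes, and their median was -0.17. Apobec3, a cytidine deaminase that mutates retroviral DNA, alone passed 2-fold, at 28.3 and 62.4 (2.21-fold higher). Of all genes, 1.82% were 2-fold higher and 1.44% 2-fold lower. The control signal of Apobec3, from a single probe set, was near the floor of 21.6. Ifitm2, a relative of Ifitm3, was 495 and 288 (log2 ratio -0.78). Genes of ISG15 conjugation, the attachment of the ubiquitin-like protein ISG15 to other proteins, differed in direction. The activating enzyme gene Uba7 was 113 and 63.8, lower in all 3 measured probe sets (-0.82, -0.68 and a bound of -0.89). The conjugating enzyme gene Ube2l6 was 47.7 and 77.4 (0.70). The ligase gene Herc6, named after its value was seen, was 133 and 92.4 (-0.53) and below 0 in all 4 of its probe sets.

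The spread of ratios depends on the signal, so the members were set beside all genes of similar mean signal. In the class from 300 to 1000, 13 of 15 members were below 0, against 52.1% of all genes, and their median was -0.35 against -0.0086. From 100 to 300, 11 of 13 were below 0, against 48.3% of all genes. From 50 to 100, only 2 of 9 were, against 46.3%, and these 9 include 3 receptor genes, Tap1 and Psmb9. Above 1000, 5 of 6 were below 0, against 63.5% of all genes, with medians of -0.22 and -0.056. Of these 6, B2m, H2-K1, H2-D1, Tapbp and Ifitm3 were lower and Ifi35 was higher. Only Ifih1, Ddx58 and Oas1a lay below the central 95% of genes in their class, and Ifngr1 alone lay above it. For the class from 300 to 1000 that range ran from -0.58 to 0.64, and for the class from 50 to 100 from -0.90 to 0.94. Dhx58, at -0.94, was inside the range of the weakest class (-0.99 to 1.07). The placing of Ddx58 and Dhx58 turned on the class edges: Ddx58, with a mean signal of 306, would be inside the range of the class below (-0.71 to 0.77), and Dhx58, with 47.7, would be outside that of the class above.

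**Figure D4:**
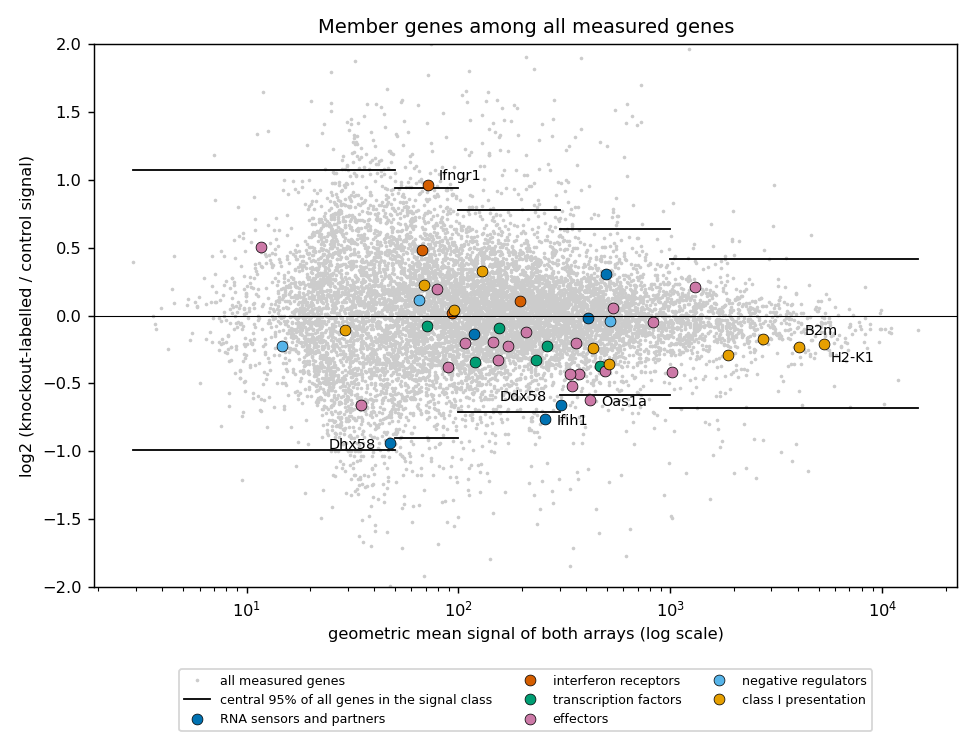
Log2 ratio (y axis) against the geometric mean signal of both arrays (x axis, log scale) for all measured genes (grey) and the members by role (coloured); black lines bound the central 95% of all genes in each signal class, and 36 genes outside the drawn range are not shown. Ifih1, Ddx58 and Oas1a lie just below the lower lines and Ifngr1 just above the upper line, while all other members lie inside.

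Several members lie in clusters of related genes, and neighbours did not always share a direction. On chromosome 19, Ifit1 (-0.52) and Ifit3 (-0.41) were lower and Ifit2 (0.19), directly beside Ifit3, was not. On chromosome 5, the neighbouring Oasl1 and Oasl2 were both lower, as were Oas1a and Oas2, which have Oas3 between them. The receptor genes Ifnar2, Ifnar1 and Ifngr2 lie close together on chromosome 16, with ratios of 0.11, 0.022 and 0.49. In the major histocompatibility complex on chromosome 17, Psmb9, Tap1, Psmb8 and Tap2 lie side by side with ratios of 0.23, 0.044, -0.24 and 0.33. Of the measured members with a promoter window, those with an IRF motif in it and those without had similar ratios. Medians were -0.23 over 18 genes and -0.20 over 21 genes. Below 0 were 15 of the 18 and 13 of the 21. Members without a window are left out of both motif comparisons. Lower among them were Dhx58 (-0.94), Mx1 (-0.66), Parp9 (-0.43), Oas2 (-0.38), Parp14 (-0.12), Nlrc5 (-0.11) and Usp18 (-0.042). Higher were Tap2 (0.33) and Mx2 (a bound of 0.50). Members with a GAS motif had a median of -0.077 over 13 genes and those without it -0.22 over 26 genes.

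Different probe sets of 1 member often disagreed. Of the 18 members with more than 1 probe set above the floor on both arrays, 7 had all of them below 0, 2 (Ifi35 and Ifnar2) had all above 0 and 9 had both signs. The median SD among probe sets of such a member was 0.22, about the size of the member median itself. It was 0.21 over all 4719 genes with more than 1 such probe set, so this disagreement is not particular to the members. Over the 73 member probe sets above the floor on both arrays, 50 had a ratio below 0 and 23 above it. Neither split was counted over all genes.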

How the data were processed

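RNA of hand-picked islets was labelled as biotinylated cRNA and hybridised to 1 Affymetrix array per group. Intensities per probe set, on a linear scale, were deposited; the authors made them with MAS5, per the submitters' processing notes; for its version, scaling target, background step and detection calls, nothing is given in the sources used here. The table holds 45037 probe sets with signals from 0.1 to 15324, used as deposited. Array precision cannot be estimated from 1 array per group, and no p-value was computed.

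Genes came from the platform annotation, which can carry old names: 34945 probe sets had 1 gene, 932 had more than 1 and 9160 had none. Only 1-gene probe sets were used. Ratios, floor and brightest probe set were computed as described with the results, in Python 3.11.15 (pandas 2.3.3, numpy 2.4.6). The code was run on simulated data with planted fold changes. These were larger than those of the members and were set in genes well above the floor. Recovery of differences as small as those of the members was not tested. All 51 members matched the RefSeq gene table of GRCm38.p6, and 42 the RefSeq promoter table. Neighbours were members with at most 10 protein-coding genes between them.

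Members, lists and rules were chosen with earlier results of these data known. Named were all members, up to 4 genes with the largest ratio per other pathway list and up to 4 macrophage and dendritic cell markers each, the partners Psmb5, Psmb6 and Psmb7, and Zbtb20; others are marked, and 1 gene of the rule is not reported here. Alternatives were median, quantile and loess scaling, floors at the 30th and 70th percentile, no floor with a pseudocount of 16, the mean over probe sets, and probe sets without the suffixes _s, _x or _a.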

Additional observations from a re-analysis of the deposited data

How the results depend on the processing

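No paired analysis was possible because each group has 1 array, and no array could be left out. Of the 48 measured members, 31 were below 0 under all settings that gave them a value and 10 were at or above 0 under all of them. The other 7 (Adar, H2-D1, Ifnar1, Ifnar2, Ifngr2, Irf3 and Rsad2) took both signs. These counts say little about stability, since few settings could change a sign. The 2 settings chosen after seeing the data reuse the main ratios, and floors and pseudocount mostly keep the order of the signals. Choices among probe sets leave genes with a single probe set unchanged. Even Usp18, at -0.042, is thus among the 31. Scaling by the median, quantile normalization and loess moved the median of all genes by at most 0.0068 in size and left every count of members within 1.5 times. Quantile normalization and loess each put the class I median at -0.12. Averaging the measured probe sets of each gene put it at -0.070. The same averaging gave medians of -0.17 for the members, -0.27 for the sensors, -0.073 for the receptors and -0.41 for the effectors. With the floor at the 30th percentile 1 member was 2-fold lower (Socs1, -1.56), 1 was 2-fold higher (Mx2, 1.81) and 2 were 1.5-fold higher. When a pseudocount of 16 took the place of the floor, 2 were 1.5-fold and 1 was 2-fold higher (Mx2, 1.18). With the floor at the 70th percentile, which leaves 42 members, 3 were 1.5-fold lower and 0 were 1.5-fold higher, with medians of -0.14 for the sensors and 0.18 for the receptors. A pair of further settings were chosen after seeing the data. With members above the floor on both arrays only, the effector median was -0.28 and that of the negative regulators, then 2 genes, was 0.036. With a mean signal of at least 100 only, 34 members were left, of which 3 were 1.5-fold lower and 0 were 1.5-fold higher, with a median of -0.14 for the sensors and 0.11 for the 1 receptor gene left. Both medians of the sensors follow from the loss of Dhx58. The cause of the other shifts was not tested. Signals near the floor of 21.6, such as those of Mx1, Mx2, Socs1, Nlrc5, H2-DMa and, in control, Apobec3, Mrc1 and Fcer1g, can be background. This limits what their ratios show.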
